A study of Mus musculus with 4 samples.

Results

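The mitochondrial ribosomal protein genes are the nuclear genes named Mrps and Mrpl, for proteins of the small and the large subunit of the ribosome inside mitochondria. They were taken as every gene of the expression table whose symbol starts with Mrps or Mrpl and a number, with 5 pseudogene entries left out. This gave 78 of 53397 genes, 29 Mrps and 49 Mrpl, spread over 17 chromosomes. RNA-seq was performed on the posterior epiblast, the dissected region in which the axial progenitors reside, from wild type mouse embryos of stage E7.5 or E8.5, before or after the start of trunk formation. Each stage had 2 libraries, each made from a separate pool, and how many embryos went into a pool was not stated. No treatment, mutation or transgene was involved, so the groups differ in stage, and in whatever else changes in the dissected region between the stages. With 2 pools a stage, the p-values below rest on the spread between these pools. The test takes this spread mostly from all genes tested (12.8 prior degrees of freedom) and less from the single gene (2 residual).

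The mitochondrial ribosome translates the few mRNAs that mitochondrial DNA encodes, all of them for subunits of the respiratory chain complexes and the ATP synthase. Its rRNAs come from mitochondrial DNA, while its proteins are made from nuclear genes, translated in the cytosol and imported. Many of these proteins descend from bacterial ribosomal proteins and keep their number with the suffix m, as in bL34m for the product of Mrpl34. Others are found only in mitochondrial ribosomes and carry an m at the front, as in mL42 for the product of Mrpl42. Work in mammalian cells has placed binding sites of NRF1, of the GABP complex of the ETS family and of YY1 in the promoters of many nuclear genes for mitochondrial proteins.

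Promoter sequences from RefSeq (GRCm38.p6, 250 bases before to 50 bases after the start site, 5' to 3' on the strand of the gene) were matched for 69 of the 78 genes. They were searched on both strands for CCGGAAG (ETS, the GABPA type), GCGCANGCGC (NRF1), AAGATGGCG (YY1), CACGTG (E-box) and ACTACANNTCCC (the type bound by ZNF143 and THAP11, added after the Mrpl34 promoter had been read). Sequences are shown for 3 of the genes with the largest decreases and for Mrps9, whose E8.5 values lay above its E7.5 values, with the motif matches in capitals. The windows are chr8:71464676-71464975 on the plus strand for Mrpl34, chr10:95501900-95502199 on the minus strand for Mrpl42, chr5:100798509-100798808 on the plus strand for Mrps18c and chr1:42850983-42851282 on the plus strand for Mrps9.
Mrpl34: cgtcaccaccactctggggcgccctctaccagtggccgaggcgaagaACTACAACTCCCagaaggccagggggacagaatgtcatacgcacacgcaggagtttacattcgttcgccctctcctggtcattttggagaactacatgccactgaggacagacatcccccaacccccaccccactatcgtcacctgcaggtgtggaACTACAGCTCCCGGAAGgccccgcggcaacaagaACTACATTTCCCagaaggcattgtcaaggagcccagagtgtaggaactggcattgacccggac
Mrpl42: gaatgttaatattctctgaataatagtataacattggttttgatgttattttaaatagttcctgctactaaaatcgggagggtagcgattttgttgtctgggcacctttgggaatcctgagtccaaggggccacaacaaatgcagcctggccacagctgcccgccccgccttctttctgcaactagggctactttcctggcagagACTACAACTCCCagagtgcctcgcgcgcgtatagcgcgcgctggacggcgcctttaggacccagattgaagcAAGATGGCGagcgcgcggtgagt
Mrps18c: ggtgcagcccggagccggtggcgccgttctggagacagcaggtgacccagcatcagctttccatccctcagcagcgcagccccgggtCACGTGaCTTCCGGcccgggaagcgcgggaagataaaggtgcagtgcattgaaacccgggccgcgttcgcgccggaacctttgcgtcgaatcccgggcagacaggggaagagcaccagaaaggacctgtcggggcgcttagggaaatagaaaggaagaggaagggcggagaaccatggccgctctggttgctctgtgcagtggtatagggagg
Mrps9: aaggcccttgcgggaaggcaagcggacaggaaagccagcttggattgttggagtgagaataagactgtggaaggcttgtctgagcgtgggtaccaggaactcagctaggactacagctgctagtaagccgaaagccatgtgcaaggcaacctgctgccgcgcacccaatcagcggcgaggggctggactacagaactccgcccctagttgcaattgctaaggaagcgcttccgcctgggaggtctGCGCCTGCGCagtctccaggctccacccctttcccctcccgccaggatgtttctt

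In the Mrpl34 promoter the capitals mark 3 matches of ACTACANNTCCC, the second of which runs into its 1 match of CCGGAAG. The Mrpl42 promoter holds 1 ACTACANNTCCC and 1 AAGATGGCG, the latter within the first 50 bases of the transcript. In the Mrps18c promoter CACGTG is followed after 1 base by CCGGAAG read on the other strand, and the Mrps9 promoter holds a single GCGCANGCGC, also on the other strand. Genes with several promoter sequences were counted as matching if any of them matched. Over the whole family, CCGGAAG was present in a promoter of 26 of 69 genes (37.7%). This compares with 9.93% of all 27025 mouse genes with a promoter and 19.9% of the 10160 of them kept for the test. GCGCANGCGC was present in 13 (18.8%), against 5.19% of all genes with a promoter and 11.4% of those kept. AAGATGGCG was present in 8 (11.6%), against 1.64% and 3.54%, and ACTACANNTCCC in 5 (7.25%), against 2.08% and 4.77%. CACGTG was present in 5 (7.25%), against 8.09% and 11.8%. A match describes these letters in this window, not a binding site.

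The libraries held between 18488218 and 19493342 reads assigned to genes. Values are normalised read counts, deposited relative to the effective size of each library, and a value of 1 stands for 17.8 to 19.7 reads. Detected members had between 144 and 2934 reads per library, with a median of 916 to 1138, so single genes were read far above the limit of counting. The most abundant entry, the rRNA CT010467, took 25.6% of the total in E7.5 replicate 1 and 18.5% to 18.9% in the other libraries. Of 7 markers of the posterior epiblast and streak, 5 fell and 1 rose, and their summed value decreased by 43.2%. T, also planned as a marker of this list, was not matched to a single entry by its symbol and was left out. Pou5f1 (log2 fold change -5.61), Cdx1 (-1.63), Epcam (-1.16), Wnt3a (-0.87) and Nkx1-2 (-0.72) fell, Fgf8 rose (1.32), and Cdx2 was not called, with 259 and 227 at E7.5 and with 260 and 260.2 at E8.5. Markers of other cell types differed between stages. Summed over 10 markers of visceral endoderm the value was 2349 and 2250 at E7.5 compared with 268 and 275 at E8.5, with 10 of 10 lower and none at 0. Summed over 6 primitive erythroid markers it was 1.80 and 0.710 at E7.5, where Hbb-y and Hba-x were at 0, and 397 and 403 at E8.5. Summed over 6 endothelial markers it was 45.3 and 42.8 at E7.5 compared with 204 and 184 at E8.5. Of 4 surface ectoderm markers, Krt8, Krt18 and Grhl2 fell and Trp63 rose (log2 fold change 3.98). Of 4 cardiac muscle markers 2 were tested, of which Myl7 fell (-1.94) and Tnnt2 was not called. The part of these cells in the values below was not tested, and in bulk tissue fewer cells of a type and less RNA per cell cannot be told apart.

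The mitochondrial ribosomal protein genes were lower at E8.5 as a group. Summed over all members, the value was 4913 and 4861 in the E7.5 libraries and 4002 and 4076 in the E8.5 libraries, a decrease by 17.4%. This was 0.457% and 0.492% of the total value at E7.5 compared with 0.412% and 0.422% at E8.5, so the stages did not overlap on either scale. Of the 77 members that were detected and tested, 52 (67.5%) fell at E8.5 and 0 rose (limma on log2(value + 1), Benjamini-Hochberg adjusted p under 0.05 over 13903 genes). Among all genes tested, 26.4% fell and 25.6% rose. No member was higher at an unadjusted p under 0.05, and edgeR and DESeq2 on the recovered reads called 0 higher as well. The median log2 fold change was -0.28 over the 77 members and -0.01 over all genes tested. Both E8.5 values lay below both E7.5 values in 63 of the 77, against 39.1% of all genes. They lay above in 3 of the 77, against 5172 of the 13903 genes.

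Apart from that of Mrpl34, the decreases were small. The quartiles of the members' log2 fold changes were -0.36 and -0.16, and the standard errors of those that fell were between 0.062 and 0.12. With a log2 fold change of at least 0.32 in size, 30 members fell, against 21.1% of all genes tested. At the log2 fold change of 1 that the study used, only Mrpl34 fell, against 6.35% of all genes. All 52 genes that fell had both E8.5 values below both E7.5 values. The call and this separation rest on the same values, and a called gene has little room for overlap. The separation is therefore no further evidence beyond the calls, and its share among all genes that fell was not taken. Leaving Mrpl34 out, the summed value still decreased by 16.8% and the median log2 fold change was -0.27.

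**Figure D1:**
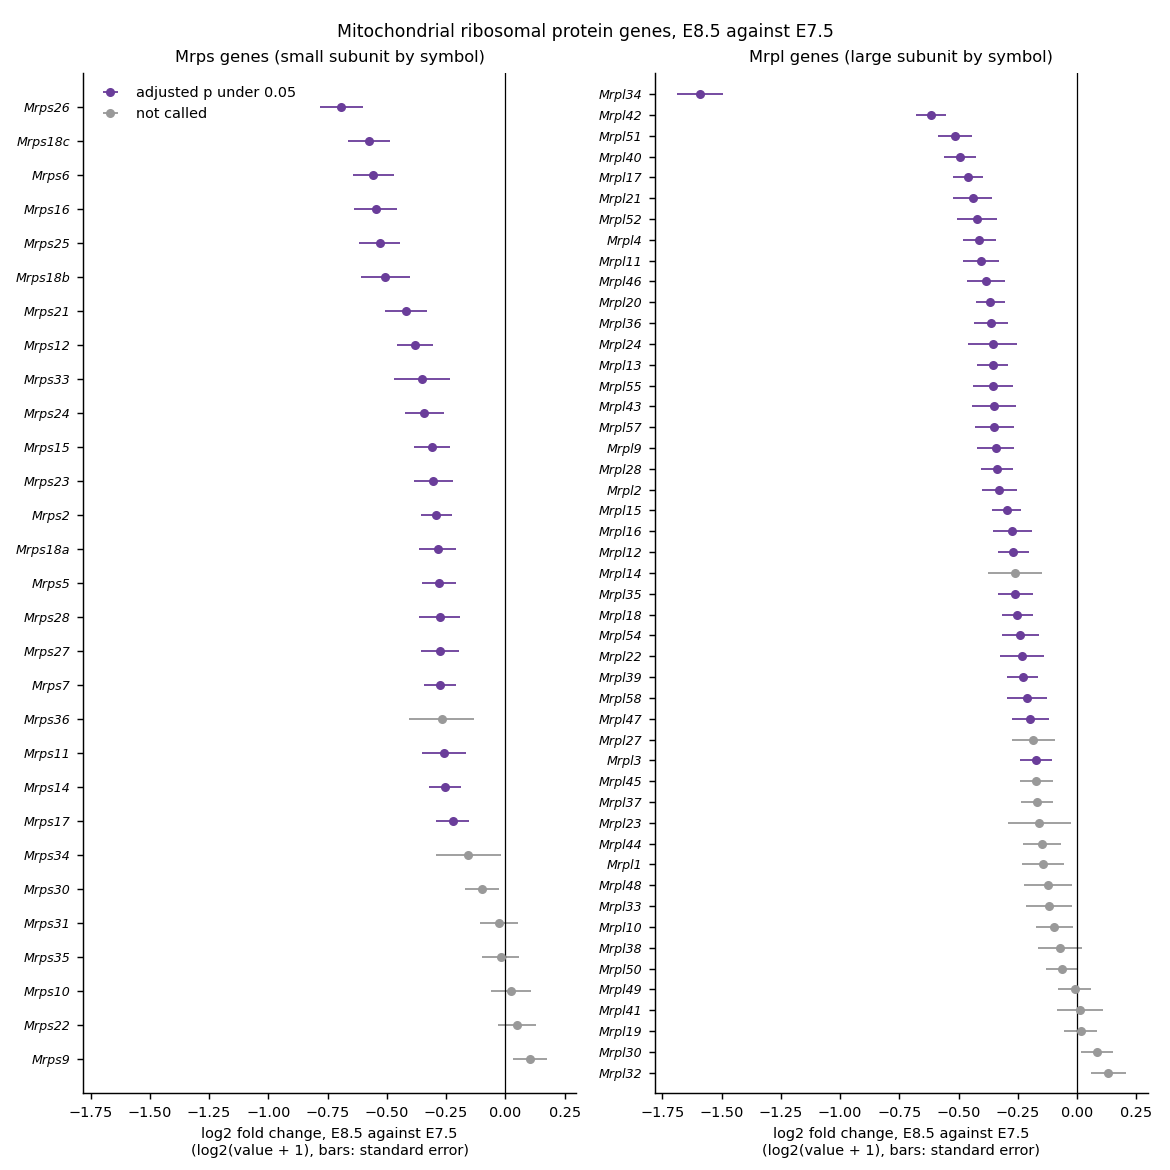
Log2 fold change (E8.5 against E7.5, on log2(value + 1)) of the 77 tested genes, Mrps on the left and Mrpl on the right, with bars for the standard error and purple points for an adjusted p under 0.05. 70 of the 77 points lie left of 0, most between -0.6 and 0, and Mrpl34 stands apart at -1.59.

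Mrpl34 encodes bL34m, a small protein of the large subunit of bacterial descent. The gene is at chr8:71464959-71465747 on the plus strand, with a principal transcript of 607 bases. Its value was 50.8 and 50.5 at E7.5 compared with 14.96 and 17.4 at E8.5, a decrease by 68.0% (log2 fold change -1.59, SE 0.10, adjusted p = 3.6e-09). Per kb of transcript it ranked 8 among the 77 genes at E7.5 and 50 at E8.5, while no other member moved by more than 13 ranks. Over all members the order of levels was kept, with a rank correlation between the stages of 0.95 across genes. Abhd8, whose start lies 1304 bases upstream on the other strand, was at 18.3 and 19.1 at E7.5 and at 13.3 and 13 at E8.5 (log2 fold change -0.48, SE 0.11, adjusted p = 0.0022). Dda1, which starts 3452 bases downstream on the same strand, was at 69.2 and 73.2 and at 65.0 and 69.6 (adjusted p = 0.37).

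The next largest decreases in the large subunit were those of Mrpl42 and Mrpl51, whose products mL42 and mL51 are specific to mitochondria. Mrpl42 was the member at the highest level per kb at both stages. Its value was 138 and 144 at E7.5 compared with 91.8 and 91.0 at E8.5 (log2 fold change -0.62, SE 0.062, adjusted p = 1.1e-06). Mrpl51 was at 73.9 and 70.1 at E7.5 and at 50.6 and 49.4 at E8.5 (log2 fold change -0.52, SE 0.072, adjusted p = 2.9e-05). In both genes the libraries of a stage lay close together and the stages were well apart.

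In the small subunit the largest decrease was that of Mrps26, for mS26, which is specific to mitochondria. Its value was 43.8 and 40.1 at E7.5 compared with 24.6 and 26.5 at E8.5 (log2 fold change -0.69, SE 0.090, adjusted p = 1.4e-05). Mrps6 encodes bS6m, whose bacterial relative binds next to S18 on the rRNA of the small subunit. It was at 45.0 and 41.3 at E7.5 and at 29.5 and 28.5 at E8.5 (log2 fold change -0.56, SE 0.086, adjusted p = 7.5e-05). Mrps16 encodes bS16m, and mutations of the human gene cause a lethal defect of mitochondrial translation. It was at 41.6 and 40.3 at E7.5 and at 26.0 and 29.6 at E8.5 (log2 fold change -0.55, SE 0.091, adjusted p = 0.00014). The stages did not overlap in any of these 3 genes. Mrps25, for mS25, was at 53.3 and 58.1 at E7.5 and at 36.1 and 40.5 at E8.5 (log2 fold change -0.53, SE 0.085, adjusted p = 1e-04). The annotated exons of Mrps25 share 69.8% of their bases with Nr2c2 on the other strand, and reads of the 2 genes cannot be told apart in libraries without strand. Nr2c2 itself was at 12.3 and 10.4 at E7.5 and at 18.5 and 17.4 at E8.5, the opposite direction.

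The symbol Mrps18 covers 3 paralogs that sit in different places of the ribosome. Mrps18c takes the place of bacterial S18 in the small subunit, Mrps18b is the small subunit protein mS40, and Mrps18a is mL66 of the large subunit. Mrps18c was at 40.1 and 39.2 at E7.5 and at 26.9 and 25.7 at E8.5 (log2 fold change -0.58, SE 0.087, adjusted p = 5.7e-05). Mrps18b was at 36.8 and 31.4 at E7.5 and at 25.03 and 22.3 at E8.5 (log2 fold change -0.51, SE 0.10, adjusted p = 0.00077). Mrps18a was at 53.2 and 51.4 at E7.5 and at 42.3 and 43.2 at E8.5 (log2 fold change -0.29, SE 0.076, adjusted p = 0.0057). All 3 paralogs fell, Mrps18a by the least, although the difference between paralogs was not tested. Mrps18a lost its call without E8.5 replicate 1 (adjusted p = 0.055).

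Symbol and place differ in another pair of genes. Mrps30 encodes mL65 of the large subunit and was at 71.4 and 76.4 at E7.5 and at 70.8 and 67.0 at E8.5 (log2 fold change -0.10, SE 0.072, adjusted p = 0.26). Mrps36 encodes a protein now known as a component of the 2-oxoglutarate dehydrogenase complex and not of the ribosome. It was at 13.4 and 16.7 at E7.5 and at 11.2 and 13.4 at E8.5 (log2 fold change -0.27, SE 0.14, adjusted p = 0.11). Neither gene was called, and the spread within E7.5 was wide in Mrps36, which was called without E7.5 replicate 1 (log2 fold change -0.42, adjusted p = 0.016). Mrpl53 was listed at 0 reads in all 4 libraries. Its exons at chr6:83109040-83109939 share 88.0% of their bases with Gm42688 on the same strand, and Gm42688 itself had values of 0.25 to 0.34. How the authors' counting treated reads in shared exons is not given in the sources used here, so the 0 is no measure of absence.

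**Figure D2:**
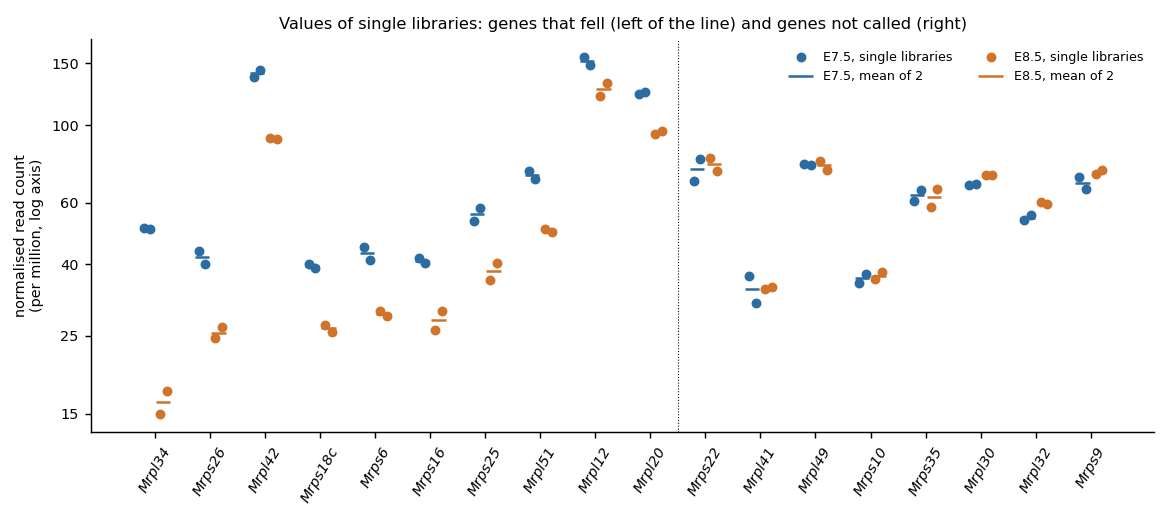
Normalised read counts (log axis) of 18 members in the 4 libraries, with points for single libraries and lines for the mean of the 2 libraries of a stage. Left of the dotted line the E8.5 points (orange) of the 10 genes lie below the E7.5 points (blue). Right of it are 8 genes that were not called. Mrpl41 and Mrps10 have both stages at nearly the same level, while both E8.5 points of Mrpl30, Mrpl32 and Mrps9 lie above both E7.5 points.

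Levels differed widely between members. Per kb of principal transcript, levels ranged from 5.36 to 211 at E7.5, with a median of 39.1, and from 4.90 to 137 at E8.5, with a median of 32.2. Mrpl20, for bL20m, was second to Mrpl42 and its value was 122 and 124 at E7.5 compared with 94.5 and 96.5 at E8.5 (log2 fold change -0.37, SE 0.062, adjusted p = 0.00017). Mrpl12 encodes the mitochondrial form of the L7/L12 stalk protein, on which translation factors dock. It came next per kb, with values of 156 and 149 at E7.5 compared with 121 and 132 at E8.5 (log2 fold change -0.27, SE 0.065, adjusted p = 0.0027), and lost its call without E8.5 replicate 1 (adjusted p = 0.094). Among Mrps genes the highest level per kb over both stages was that of Mrps21, for bS21m, with 41.2 and 39.9 at E7.5 compared with 28.3 and 31.8 at E8.5 (log2 fold change -0.42, SE 0.089, adjusted p = 0.0011), while at E8.5 alone Mrps22 (64.6 per kb) lay above Mrps21 (61.6 per kb). Mrps28, for bS1m, was at 48.2 and 53.1 at E7.5 and at 44.3 and 39.1 at E8.5 (log2 fold change -0.28, SE 0.087, adjusted p = 0.015), and lost its call without E8.5 replicate 2 (adjusted p = 0.20). Beyond the 8 largest, the 44 other genes that fell had log2 fold changes between -0.51 and -0.17.

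Further members, picked by role after their values had been seen, showed the same range. Mrpl11 and Mrpl10 encode uL11m and uL10m, which form the base of the stalk that carries the Mrpl12 product. Mrpl11 was at 102 and 92.8 at E7.5 and at 69.2 and 77.7 at E8.5 (log2 fold change -0.40, SE 0.076, adjusted p = 0.00042). Mrpl10 was at 68.1 and 63.6 at E7.5 and at 58.6 and 64.6 at E8.5 (log2 fold change -0.10, SE 0.076, adjusted p = 0.31). Of these 2 partners of Mrpl12, Mrpl11 fell, and the values of Mrpl10 overlapped between the stages. Mrps12 encodes uS12m, whose bacterial relative lies at the decoding site and is the place of streptomycin resistance mutations. It was at 54.3 and 54.6 at E7.5 and at 41.9 and 41.2 at E8.5 (log2 fold change -0.38, SE 0.076, adjusted p = 0.00066). Mrpl58 encodes mL62, a peptidyl-tRNA hydrolase built into the large subunit. It was at 41.6 and 41.8 at E7.5 and at 34.5 and 37.4 at E8.5 (log2 fold change -0.21, SE 0.083, adjusted p = 0.046), close to the threshold. Mrpl40, for mL40, was at 88.0 and 91.4 at E7.5 and at 62.9 and 63.8 at E8.5 (log2 fold change -0.49, SE 0.068, adjusted p = 2.3e-05), with no overlap of the stages.

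A set of 25 tested members was not called, with log2 fold changes between -0.27 and 0.13. In 11 of them both E8.5 values lay below both E7.5 values, in 11 the stages overlapped, and in 3, Mrpl30, Mrpl32 and Mrps9, both E8.5 values lay above. Mrps22, whose human counterpart is mutated in a cardiomyopathy with a lack of mitochondrial small rRNA, was at 69.5 and 80.1 at E7.5 and at 80.4 and 74.2 at E8.5 (adjusted p = 0.62). Mrps10 was at 35.4 and 37.7 at E7.5 and at 36.3 and 38.0 at E8.5, and Mrps35 was at 60.8 and 65.2 and at 58.6 and 65.8. The stages overlapped in each of these genes. Mrpl49 was at 77.6 and 76.9 at E7.5 and at 79.2 and 74.3 at E8.5, and Mrpl41 at 37.2 and 31.1 and at 34.003 and 34.6. Mrpl32, for bL32m, which is cut to its mature form by a protease of the mitochondrial inner membrane, was at 53.6 and 55.3 at E7.5 and at 60.1 and 59.5 at E8.5 (log2 fold change 0.13, SE 0.072, adjusted p = 0.14). Mrpl30 was at 67.5 and 68.1 and at 72.1 and 71.9 (adjusted p = 0.31). Mrps9 was at 71.0 and 65.6 and at 72.4 and 74.5 (adjusted p = 0.24).

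The genes of both subunits were mostly lower at E8.5. Of 29 Mrps genes, 21 (72.4%) fell, with a median log2 fold change of -0.28. Of 48 tested Mrpl genes, 31 (64.6%) fell, with a median of -0.26. The summed value of the Mrps genes was 1546 and 1554 at E7.5 compared with 1287 and 1301 at E8.5, a decrease by 16.5%. That of the Mrpl genes was 3367 and 3307 at E7.5 compared with 2714 and 2774 at E8.5, a decrease by 17.8%. Their ratio was 0.459 and 0.470 at E7.5 compared with 0.474 and 0.469 at E8.5, and on this measure the stages overlapped. With the subunits set by structure instead of by symbol, 20 of 26 small subunit genes (median -0.29) and 32 of 50 large subunit genes (median -0.26) fell. The count for Mrpl genes depended on E8.5 replicate 1 and was 20 without it. No p is given for the subunits, because an exact permutation test of 2 against 2 libraries cannot go below 0.33.

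Genes were also split by the standard name of the product, with an m at the front counted as mitochondria-specific. Mrps18a and Mrps18b, paralogs of Mrps18c, were counted there by this rule. So split, 35 of 46 genes of bacterial type (76.1%, median -0.28) and 17 of 30 mitochondria-specific genes (56.7%, median -0.23) fell. Their summed values decreased by 18.0% and 16.2%. The genes with CCGGAAG in the promoter had a median log2 fold change of -0.35, with 21 of 25 lower, and those without it -0.26, with 26 of 43 lower. For GCGCANGCGC the medians were -0.26 with and -0.28 without a match, and for AAGATGGCG -0.28 and -0.27. With the NRF1 motif 7 of 13 genes fell, against 40 of 55 without it. With the YY1 motif 7 of 8 fell, against 40 of 60. For the E-box the median was -0.36 with a match (4 of 5 lower) and -0.27 without (43 of 63 lower). For the motif of the ZNF143 and THAP11 type it was -0.36 (3 of 5 lower) and -0.28 (44 of 63 lower). The groups with the E-box and with the motif of the ZNF143 and THAP11 type hold only 5 genes each. The latter motif was added after the Mrpl34 promoter had been read, and Mrpl34 and Mrpl42 are among its 5 genes. All these medians and counts are descriptions of overlapping groups of genes, and no difference between them was tested. A head-to-head pair of members, Mrpl46 and Mrps11, starts within 412 bases on chr7. Mrpl46 was at 55.9 and 51.5 at E7.5 and at 39.7 and 42.1 at E8.5 (log2 fold change -0.38, SE 0.080, adjusted p = 0.001). Mrps11 was at 32.4 and 33.98 at E7.5 and at 26.2 and 29.0 at E8.5 (log2 fold change -0.26, SE 0.092, adjusted p = 0.028). Both fell, although their exons overlap by 173 bases, where reads cannot be assigned to a strand.

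Transcript length moved with the difference between stages over the whole table. Among all genes tested, the median log2 fold change was -0.37 for principal transcripts under 600 bases, -0.25 from 600 to 1000, -0.15 from 1000 to 1500, -0.07 from 1500 to 2500, 0.02 from 2500 to 4000 and 0.13 over 4000. The share that fell went from 47.6% in the shortest bin to 16.5% in the longest. The mitochondrial ribosomal protein genes are short, with a median of 1316 bases against 2947 over all genes tested. Their own fold changes followed length weakly, with a Pearson correlation with log2 length of 0.16 over 77 genes (Spearman 0.18) and of 0.34 with the log2 summed length of all annotated exons, against 0.20 (Spearman 0.26) with transcript length over all genes. These correlations are across genes that share the same 4 libraries, and genes are not independent replicates. In each of the 6 bins the share of members that fell was above that of all genes. It was 66.7% of 3, 66.7% of 21, 72.7% of 22, 50% of 10, 75% of 12 and 66.7% of 9 genes from the shortest to the longest bin. Of protein-coding genes alone, the share that fell was 65.1%, 59.5%, 43.4%, 33.3%, 24.8% and 17.0% in these bins, so in the shortest bin the members and other coding genes were nearly level.

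When the trend on length over all genes was removed from each library, 29 members fell and 5 rose, against 25.7% and 24.2% of all genes, and the median log2 fold change was -0.16. The 29 were all among the 52 that had fallen before. The 5 that rose were Mrpl30 (log2 fold change 0.28, adjusted p = 0.0021), Mrps9 (0.23, adjusted p = 0.012), Mrpl41 (0.25, adjusted p = 0.030), Mrps22 (0.21, adjusted p = 0.033) and Mrps10 (0.21, adjusted p = 0.046). Of the 46 members under 1500 bases, 32 fell before and 10 after the removal, while of the 31 longer members 20 fell before and 19 after. Of all genes of any length, 26.4% fell before and 25.7% after. The 10 of 46 shorter members are a smaller share than the latter, and the 5 members that rose were all under 1500 bases. Among long members, Mrps25 (6073 bases) had a log2 fold change of -0.67, Mrpl17 (7300 bases) of -0.64, Mrps26 (4278 bases) of -0.78 and Mrpl51 (3427 bases) of -0.56 after the removal. Mrpl34 fell by 1.31 on the log2 scale, Mrpl42 by 0.35 and Mrps18c by 0.30. Mrps21, Mrps28, Mrpl20, Mrpl12 and Mrps18a, all under 1500 bases, were no longer called. Between the E7.5 replicates the genes under 600 bases differed by a median of -0.097, so length also moved within a stage, by less than between stages. The principal transcript may not be the one used in this tissue, and where a shorter one is used the length, and with it the corrected fold change of long members, is overstated. The removal takes out any true difference that goes with length, and the part of length in the decrease was not tested.

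**Figure D3:**
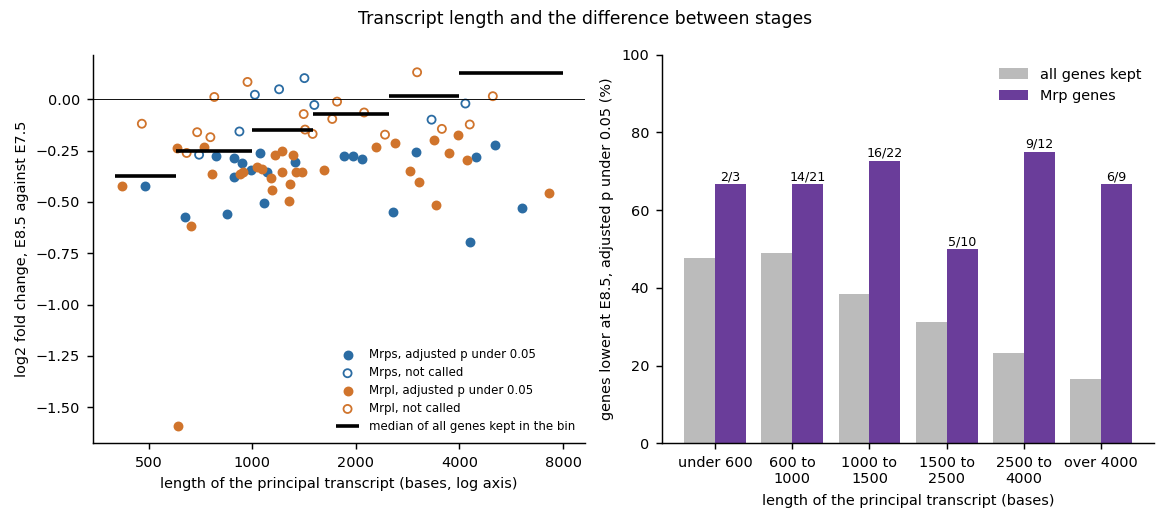
Left, log2 fold change against length of the principal transcript (bases, log axis) for the tested genes (blue Mrps, orange Mrpl, filled for an adjusted p under 0.05), with black lines for the median of all 13903 genes in 6 length bins. Right, the share of genes that fell in each bin for all genes (grey) and for the mitochondrial ribosomal protein genes (purple, with counts), which lies between 50% and 75% while that of all genes goes from 47.6% to 16.5%.

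The other genes of mitochondrial translation are given as counts beside the same 26.4% lower and 25.6% higher among all genes. Of 5 ribosome proteins under other symbols, 2 fell and 1 rose. Chchd1, for mS37, was at 109 and 96.9 at E7.5 and at 74.5 and 82.8 at E8.5 (log2 fold change -0.39, SE 0.077, adjusted p = 0.00066), and Aurkaip1, for mS38, was at 79.9 and 80.2 and at 66.1 and 63.0 (log2 fold change -0.31, SE 0.069, adjusted p = 0.0017). Ptcd3, for mS39, which lies near the mRNA entry of the small subunit, rose from 161 and 177 to 217 and 205 (log2 fold change 0.32, SE 0.064, adjusted p = 0.00067). Its stages did not overlap, and its direction was opposite to that of the other small subunit genes that were called. After removal of the length trend Ptcd3 was still higher (log2 fold change 0.33), while Chchd1 (-0.10, adjusted p = 0.24) and Aurkaip1 (-0.14, adjusted p = 0.10) were not called.

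Of 26 assembly factors 10 fell and 1 rose, with a median log2 fold change of -0.15. Mpv17l2, an inner membrane protein that binds the mitochondrial ribosome in human cells, fell from 9.22 and 9.23 to 3.83 and 3.45 (log2 fold change -1.14, SE 0.15, adjusted p = 1.5e-05). Mrm1, which methylates the large rRNA, fell from 9.72 and 11.8 to 7.14 and 5.80 (adjusted p = 0.0021), and Gtpbp10, a GTPase of large subunit assembly, rose from 37.9 and 41.99 to 46.4 and 48.0 (adjusted p = 0.025). The count of assembly factors that fell was 6 without E7.5 replicate 1, 4 without E8.5 replicate 1 and 6 after removal of the length trend. Of 12 translation factors 1 fell (Gfm2, of ribosome recycling) and 1 rose (Guf1, an elongation factor), with a median of -0.15. None of them fell without E7.5 replicate 2 or without E8.5 replicate 2, and 2 fell without E7.5 replicate 1. Of 20 aminoacyl-tRNA synthetases and amidotransferase subunits 6 fell and 0 rose (1 at an unadjusted p under 0.05), with a median of -0.10 and Vars2 the lowest at -0.52, and 3 fell when either E8.5 library was left out. Of 11 tested transcription and RNA factors 2 fell, Polrmt, the mitochondrial RNA polymerase (-0.29), and Lrpprc, which stabilises mitochondrial mRNAs (-0.17), and 2 rose, Hsd17b10 (0.36) and Trmt10c (0.25), both subunits of mitochondrial RNase P. In this list 1 fell without E7.5 replicate 2 or E8.5 replicate 1, and 0 when E8.5 replicate 2 was left out.

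The RNAs that this ribosome contains and reads were measured in the same libraries. The small rRNA, mt-Rnr1, was at 2428 and 2382 at E7.5 and at 1747 and 1366 at E8.5 (log2 fold change -0.64, SE 0.086, adjusted p = 2.1e-05). The large rRNA, mt-Rnr2, was at 23833 and 20919 at E7.5 and at 18132 and 17556 at E8.5 (log2 fold change -0.32, SE 0.093, adjusted p = 0.009). Both fell, in libraries that capture RNA by its poly(A) tail, and mt-Rnr2 was not called after removal of the length trend (log2 fold change -0.22, adjusted p = 0.055). Of 13 mRNAs from mitochondrial DNA, 8 were tested, and the others did not reach a value of 1 in at least 2 libraries. Among the 8 tested, 2 fell, mt-Nd5 (-0.47) and mt-Nd6 (-0.44), and 1 rose, mt-Nd3 (0.50). The summed value of all 13 was 15171 and 19208 at E7.5 compared with 15988 and 15414 at E8.5, so the stages overlapped. The count that fell was 7 without E7.5 replicate 1, and 1 after removal of the length trend, where mt-Nd6 was not called (log2 fold change -0.13, adjusted p = 0.087).

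The proteins of the cytosolic ribosome, a separate machine that translates nuclear mRNAs, fell as well. Of 80 tested genes 75 (93.8%) fell and 0 rose, at an unadjusted p under 0.05 as well, with a median log2 fold change of -0.42, and 51 fell after removal of the length trend, with a median of -0.21. Their median length was 882 bases. Rpl39 fell from 236 and 204 to 126 and 125 (log2 fold change -0.80, SE 0.069, adjusted p = 2.1e-07), and Rpl37 from 319 and 270.2 to 170 and 176 (log2 fold change -0.76, SE 0.071, adjusted p = 4.5e-07). The difference between the families was not tested.

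**Figure D4:**
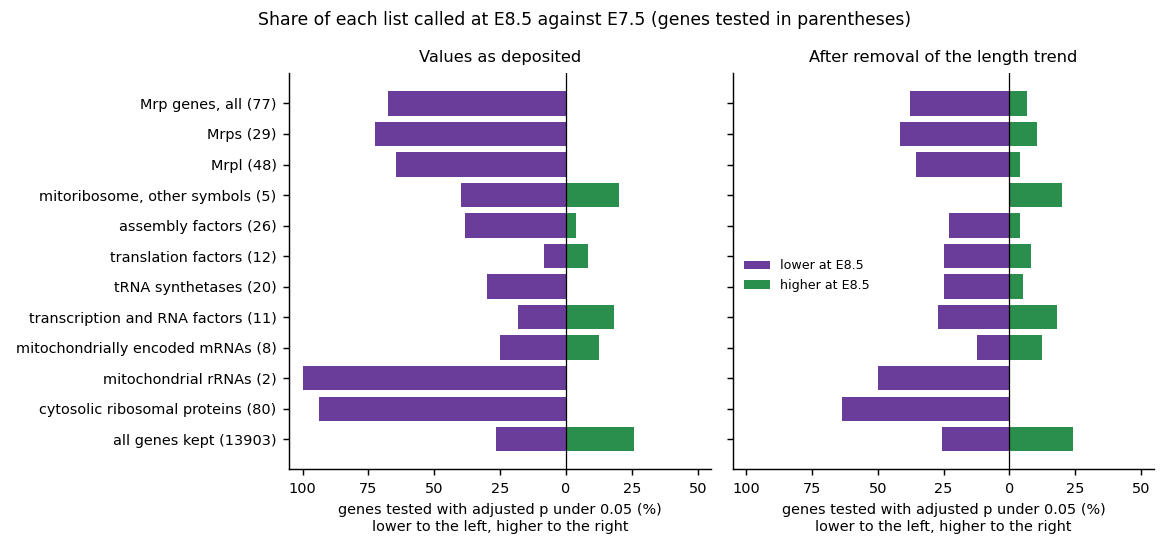
Share of the tested genes of each list with an adjusted p under 0.05, lower at E8.5 to the left (purple) and higher to the right (green), for the values as deposited and after removal of the length trend. The bars of the mitochondrial ribosomal protein genes reach 67.5% lower and 0% higher on the left panel, between those of all genes (26.4%) and of the cytosolic ribosomal proteins (93.8%).

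Of the 77 tested members, 54 shared no exonic base with another gene at a value of 1 or more in any library. Of these 54, 36 fell, with a median log2 fold change of -0.27. In 6 members over 25% of the exonic bases were shared with such a gene on the other strand, and 4 of these fell. Mrps34, among these 6, also shared 37.0% of its exonic bases with Nme3 on the same strand, and Nme3 was at 0 in all libraries. The 5 pseudogene entries of the family had values of at most 2.70. Leaving out a library, between 37 and 52 of the members fell, with the lowest count, 37, without E8.5 replicate 1. In that fit calls over all genes were fewer too, with 2922 of 13411 genes lower in place of 3671 of 13903.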

How the data were processed

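Wild type posterior epiblast was read at E7.5 and E8.5, 2 libraries each. Per the study's methods, the authors made SMART-Seq2 libraries, sequenced single-end reads of 75 bases and aligned them to mm10 with STAR. The paper names DESeq2 for normalisation, and the submitters' processing notes name edgeR. The counting program and annotation are not given in the sources used here. The deposited values are a signal, reads divided by a factor proportional to the effective size of the library. Division by the smallest step returned whole reads for 100% of values within 0.0001 reads. Genes at 1 or more in at least 2 libraries were kept (13903). Stages were compared with limma 3.58.1 (R 4.3.3) with a mean-variance trend on log2(value + 1), with 2 residual and 12.8 prior degrees of freedom and adjustment over all kept genes. Since the table was not of whole counts, edgeR 4.0.16 and DESeq2 1.42.0 were run on recovered reads as alternatives, where edgeR called 3539 genes lower and 3633 higher. The length trend was removed by loess (span 0.3) on log2 length of the principal transcript of GENCODE vM21, which matched 78 of 78 members. Lengths, positions and overlaps are from that annotation on GRCm38.

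The fit was also run on simulated data, after the fits of the real data, and that outcome is not given here. Members and lists were chosen with earlier results of these data known. Genes were named by rule, from the called members with a mean of at least 10 and no overlap of stages: the 8 largest changes each way. Added to these were the 3 highest per kb and the 2 least changed in each subunit, the Mrps18 paralogs, Mrps30, Mrps36, untested members, and the 2 largest called changes each way of each further list, of which the text gives some. Mrpl10, Mrpl11, Mrpl17, Mrpl30, Mrpl32, Mrpl40, Mrpl46, Mrpl58, Mrps9, Mrps11, Mrps12 and the neighbours of Mrpl34 were named after their values were seen.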

Additional observations from a re-analysis of the deposited data

How the results depend on the processing

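Across the 2 other pseudocounts, the 2 other filters, the equal totals, edgeR and DESeq2, between 39 and 54 of the members fell and 0 rose, with medians between -0.28 and -0.26. Leaving out a library gave 37 to 52 members lower, and 20 Mrpl genes lower without E8.5 replicate 1 (33 without E7.5 replicate 2). The differences between replicates 1 and 2 at E7.5 and at E8.5 had a correlation of -0.0025 across genes. With 1 difference per stage, this cannot show whether the pools were paired. With a replicate block 49 members fell. Without the length trend 29 fell and 5 rose (median -0.16), among Mrps genes 12 and 3 (-0.16) and among Mrpl genes 17 and 2 (-0.15). With exonic length in its place, chosen after seeing the data, 31 fell and 1 rose (-0.18), among Mrps genes 11 fell (-0.16) and among Mrpl genes 20 fell and 1 rose (-0.18). With no filter on low values 3 assembly factors, 0 translation factors, 0 transcription and RNA factors and 1 mitochondrially encoded mRNA fell, and in DESeq2 4 assembly factors and 0 of each of the next 2 lists. A log2 fold threshold of 0.32 left 30 and one of 1 left 1. Among 21 named members 14 were called, and 5 lost the call without the length trend.

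Some signs turned. Leaving out 1 library in turn, Mrps22 lay between -0.0516 and 0.1507, Mrps35 between -0.1026 and 0.0626, Mrps10 between -0.0219 and 0.0677, Mrpl49 between -0.056 and 0.0347 and Mrpl41 between -0.1128 and 0.1369, and the median of the transcription and RNA factors between -0.0811 and 0.075. That median was 0.0005 in edgeR, 0.0001 in DESeq2, 0.0003 without the length trend and 0.0298 without the exonic one, and that of the mitochondrially encoded mRNAs went from -0.15 to 0.0325 and 0.0626. Without the length trend 61 members were negative in place of 70, and the called genes Mrpl54 (-0.24 to 0.05) and Mrpl22 (-0.23 to 0.02) turned and lost their calls. Mrps10 was -0.0798 for exonic length, and Mrpl49 0.0007 in edgeR and 0.0746 and 0.1357 for the length trends. The causes were not tested. With 2 pools a stage, small decreases could be missed.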
